A study of Homo sapiens with 8 samples.

Results

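H/ACA small nucleolar RNAs (snoRNAs) that lie in no protein-coding gene were examined in iCLIP libraries of the H/ACA proteins dyskerin and GAR1. Members were the SNORA genes of GENCODE 44 that no protein-coding gene on the same strand contains. SNORA73A and B, SNORA71A to D, SNORA60, SNORA44, SNORA61, SNORA16A and the loci at TAF1D were set aside. Of 211 SNORA loci on GRCh38, 95 lay in no protein-coding gene and 87 were members, and the remaining 124 served for comparison. The rule used annotation only and no measured value. Of the 87 members, 27 lay inside a long non-coding RNA (lncRNA) gene on their strand and 60 in no lncRNA or protein-coding gene on it. There were 8 libraries from nuclei of U2OS cells, a human osteosarcoma line, 2 each for dyskerin, GAR1, the IgG control of the dyskerin set (IgG-dyskerin) and the IgG control of the GAR1 set (IgG-GAR1). All 4 groups shared the cells, the ultraviolet crosslinking and the nuclear fraction, and none carried a treatment or an allele. The IgG was from mouse, as was the dyskerin antibody, whereas the GAR1 antibody was from rabbit, so IgG-GAR1 was not matched by species. The labels number the replicates and no more, so p-values measure the spread between these libraries, which may be technical.

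H/ACA snoRNAs fold into a pair of hairpins joined by a short hinge, the H box, and end in an ACA box shortly before the 3′ end. They form a particle with dyskerin, the pseudouridine synthase, and with GAR1, NHP2 and NOP10, and most of them guide pseudouridylation of ribosomal RNA in the nucleolus. In vertebrates they are commonly released from introns of host genes, either protein-coding genes or non-coding hosts such as the small nucleolar RNA host genes (SNHG). iCLIP places a crosslink at the nucleotide before the first base of each cDNA, and a cDNA that runs through to the 5′ end of an RNA gives a site just upstream of it. Sites up to 5 nt before the annotated start were therefore counted with the RNA, and the 5 nt were chosen after the data were seen. A count of such cDNAs cannot tell apart the amount of RNA per cell, the share of cells that hold it and the crosslinking of each RNA.

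Leading members are shown first, because the levels and site positions given below refer to them. They are given 5′ to 3′ on the strand of the gene, as DNA letters of GRCh38, with a candidate H box (ANANNA near the middle) and the ACA of the tail in capitals. SNORA24 lies at chr4:118279190-118279320 (+), SNORA26 at chr4:52713249-52713370 (+), SNORA9 at chr7:44985378-44985510 (-) and SNORA13 at chr5:112161485-112161617 (+). SNORA17A lies at chr9:136726747-136726879 (-) and SNORA50C at chr17:64146339-64146471 (+).
SNORA24: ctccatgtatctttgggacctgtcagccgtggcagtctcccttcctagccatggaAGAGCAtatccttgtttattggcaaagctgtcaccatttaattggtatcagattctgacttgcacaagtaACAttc
SNORA26: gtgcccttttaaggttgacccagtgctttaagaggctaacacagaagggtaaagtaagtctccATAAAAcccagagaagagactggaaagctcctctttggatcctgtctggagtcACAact
SNORA9: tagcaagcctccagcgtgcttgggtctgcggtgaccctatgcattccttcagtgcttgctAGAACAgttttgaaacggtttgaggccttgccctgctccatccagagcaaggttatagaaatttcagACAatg
SNORA13: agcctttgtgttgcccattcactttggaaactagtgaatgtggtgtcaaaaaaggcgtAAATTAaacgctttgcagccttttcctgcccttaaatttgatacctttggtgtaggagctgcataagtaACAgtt
SNORA50C: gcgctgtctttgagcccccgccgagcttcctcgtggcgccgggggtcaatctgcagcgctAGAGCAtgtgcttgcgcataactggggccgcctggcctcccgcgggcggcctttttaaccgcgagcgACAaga
SNORA17A: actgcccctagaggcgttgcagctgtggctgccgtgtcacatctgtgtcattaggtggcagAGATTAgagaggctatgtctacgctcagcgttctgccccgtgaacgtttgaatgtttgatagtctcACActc

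SNORA24 lies in SNHG8, SNORA9 in SNHG15, and SNORA17A and SNORA17B in SNHG7. SNORA26 lies in DANCR and also in LINC01618, and SNORA13 in EPB41L4A-AS1, opposite the protein-coding gene EPB41L4A. In most annotated host transcripts that span these 6 RNAs the RNA is intronic: 12 of 15 SNHG8 transcripts for SNORA24, 12 of 13 DANCR transcripts for SNORA26 and 10 of 14 SNHG15 transcripts for SNORA9. SNORA17A was intronic in 6 of 10 SNHG7 transcripts and SNORA17B in 9 of 10. SNORA50C differed, since the 1 spanning transcript of its host SNHG25 holds it inside an exon. Of the next members, SNORA63D and SNORA63E lie in LINC00888, SNORA78 in SNHG9, SNORA71E in SNHG11 and SNORA22C in CCT6P3.

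The libraries held between 8183 and 1976518 cDNAs in significant sites, with the fewest in the second IgG library of each set (8183 in IgG-dyskerin and 10701 in IgG-GAR1). H/ACA snoRNAs made up 12.6% and 15.9% of these cDNAs for dyskerin, 78.4% and 75.5% for GAR1, 16.2% and 59.5% for IgG-dyskerin, and 81.2% and 76.0% for IgG-GAR1. The IgG libraries were thus also rich in H/ACA RNA, and the replicates of IgG-dyskerin stood far apart. Of 10 mesenchymal marker genes 8 had a site in some library, COL1A1 and VIM among them, and COL1A2 and S100A6 had none. The list summed to 1010 and 1910 CPM in dyskerin, 0 and 156 in GAR1, 450 and 0 in IgG-dyskerin, and 0 in both IgG-GAR1 libraries. Of 8 markers of other cell types 3 had a site, with 0 to 374 CPM in sum over the libraries, while EPCAM, PTPRC, CD74, ALB and GFAP had none. Sites on pre-mRNA are not expression levels, and the part of other cells in the results was not tested.

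Most members held no site. A site in any library was listed for 37 of 87 members, and none for 50, of which 24 carry the symbol SNORA70. Sites in both dyskerin libraries were found for 22 members (25.3%) and in both GAR1 libraries for 28 (32.2%), compared with 105 of the 124 other H/ACA snoRNAs (84.7%) in each. In both IgG-dyskerin libraries 10 members had a site, and in both IgG-GAR1 libraries 11. Only significant sites are listed in the files, so a member without a site may have held cDNAs that did not pass.

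The members inside lncRNA genes held nearly all cDNAs. Among the 27, 19 had a site and held 226848 of 228619 member cDNAs, or 99.2%. Among the 60 in no gene on their strand, 18 had a site, with 1771 cDNAs together (0.775%). The leading RNA of the second kind was SNORA11F, opposite NUDT13, with 929 cDNAs. The 24 members that lie opposite a protein-coding gene included 9 with a site.

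A few RNAs dominated within the members. SNORA24 had the most cDNAs in all 8 libraries, with 19.7% to 36% of the member cDNAs. The 7 leading members held 83.6% to 95.4% and the 15 leading members 99.1% to 100% of them. Per 100 nt of annotated RNA, the mean over the 4 antibody libraries was 6518 CPM (counts scaled to the same library total) for SNORA24, 3989 for SNORA26, 3443 for SNORA9, 3297 for SNORA13, 2972 for SNORA17B, 2587 for SNORA50C and 2135 for SNORA17A. SNORA63E followed at 855, SNORA63D at 836 and SNORA7B at 743, and SNORA11F closed the first 15 at 105. The order per length was the same as that of the mean CPM per RNA over these 15. Neighbours in this order often differed by less than the replicates did: in the dyskerin libraries SNORA26 stood at 1045 ± 4.11 per 100 nt, SNORA50C at 1050 ± 218, SNORA9 at 996 ± 157 and SNORA13 at 933 ± 151 (SD, n = 2).

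SNORA24, a guide for small-subunit ribosomal RNA, had CPM of 2812 and 5007 in dyskerin, 13342 and 12992 in GAR1, 2218 and 15398 in IgG-dyskerin, and 13588 and 12522 in IgG-GAR1. Its GAR1 and IgG-GAR1 values overlapped, and its IgG-dyskerin values lay on both sides of the dyskerin pair. SNORA26 had 1271 and 1278 in dyskerin, 8704 and 8211 in GAR1, 1351 and 5010 in IgG-dyskerin, and 7688 and 7663 in IgG-GAR1. Both GAR1 libraries were above both IgG-GAR1 libraries for this RNA, and both dyskerin libraries below both IgG-dyskerin libraries. SNORA13, also a guide for small-subunit ribosomal RNA, had 1099 and 1383 in dyskerin, 7435 and 7623 in GAR1, 1174 and 5377 in IgG-dyskerin, and 7370 and 8130 in IgG-GAR1. SNORA9 had 1176 and 1472 in dyskerin, 7715 and 7951 in GAR1, 1037 and 4644 in IgG-dyskerin, and 7234 and 2056 in IgG-GAR1. For SNORA9 GAR1 was above IgG-GAR1 without overlap, while SNORA13 overlapped its IgG in both sets.

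SNORA17A and SNORA17B are neighbours in SNHG7. SNORA17B had 694 and 687 in dyskerin, 6747 and 8040 in GAR1, 539 and 2322 in IgG-dyskerin, and 4566 and 2243 in IgG-GAR1. SNORA17A had 628 and 804 in dyskerin, 4815 and 5113 in GAR1, 833 and 2811 in IgG-dyskerin, and 5656 and 2336 in IgG-GAR1. GAR1 was above IgG-GAR1 in every library for SNORA17B, and overlapped it for SNORA17A. SNORA50C, from the exon of SNHG25, had 1191 and 1601 in dyskerin, 5517 and 5454 in GAR1, 764 and 5255 in IgG-dyskerin, and 4403 and 3364 in IgG-GAR1. The GAR1 values of SNORA50C lay close together and above both IgG-GAR1 values.

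**Figure D1:**
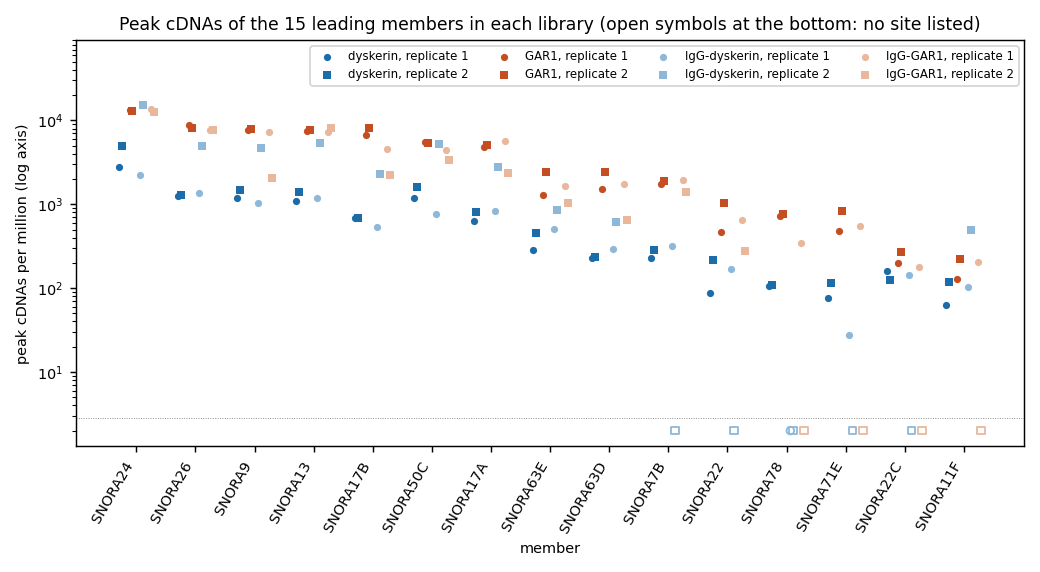
Peak cDNAs as CPM (log axis) of the 15 leading members in the 8 libraries, 1 symbol for each library, with open symbols at the bottom where no site was listed. SNORA24 leads in every library, the 2 GAR1 libraries lie above the 2 dyskerin libraries for each RNA, and the IgG symbols spread over and between the antibody symbols.

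Lower members dropped out of the smaller libraries. SNORA7B had no site in the second IgG-dyskerin library but 1402 CPM in the second IgG-GAR1 library. SNORA78 was at 107 and 108 in dyskerin and 717 and 772 in GAR1, and its 1 IgG library with a site was the first IgG-GAR1 library, at 349. SNORA71E was at 76.7 and 114 in dyskerin and 475 and 833 in GAR1. SNORA80C and SNORA1B had no site in either dyskerin library and stood at 47.8 and 59.7, and 44.4 and 56.7, in GAR1. SNORA50D and SNORA70H went the other way, with sites in dyskerin alone, at most 11.2 CPM. These 4 RNAs held at most 158 cDNAs each over the 8 libraries.

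Against IgG, no member passed the test with all libraries included. In the dyskerin comparison, 24 members had counts high enough to be tested, a filter that depends on the libraries in which a member is high, and 0 were called at an adjusted p under 0.05 by edgeR's quasi-likelihood test, as for all genes tested (0%). At an unadjusted p under 0.05 1 member was higher (SNORA78) and 0 were lower, against 22.0% and 0.140% of all genes. The median log2 fold change was 0.14 for the members and 2.00 for all 6451 genes tested. Among the 14 members with sites in both groups the median was -0.15. SNORA24 stood at -0.09 (SE 1.04), SNORA26 at -0.46 (SE 1.14) and SNORA13 at -0.46 (SE 1.16), each change smaller than its SE. The lowest value was that of SNORA11F, at -0.73 (SE 2.33). SNORA78 had no site in IgG-dyskerin and SNORA20B none in either IgG set, so no fold is given for these.

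In the GAR1 comparison 0 of 24 members were called, again as for all genes (0%), and the smallest adjusted p of a member was 0.119, that of SNORA17B. Without the filter on low counts 2 of 37 members were called higher, against 24 of 14595 genes. With GAR1 replicate 1 omitted, which left 1 library in that group, the members' median log2 fold change was 5.56. In the main fit, at an unadjusted p under 0.05, 16 members were higher and 0 lower, while 15.8% of all genes were higher and 0.0775% lower. All 24 members had a positive log2 fold change, with a median of 5.00. The median of all genes was 0, which is also the value of a gene with no site in either group. The GAR1 libraries listed 24810 and 53445 sites, against 902977 and 925145 in dyskerin. That 0 is therefore not read as unchanged levels. The 105 other H/ACA snoRNAs tested were positive as well, with a median of 4.62. This size rests on the scaling: TMM factors, which set the effective library sizes, were 0.293 and 0.0716 for GAR1 but 1.52 and 3.19 for IgG-GAR1. Without TMM the median of the members was 0.79 and 23 were positive. SNORA17B stood at 5.19 (SE 1.39), SNORA9 at 4.67 (SE 1.34) and SNORA24 at 4.14 (SE 1.18, the lowest of the 24).

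The libraries can also be compared within the H/ACA snoRNAs, which needs no such factor. Members held 8.07% and 8.79% of the H/ACA snoRNA cDNAs in dyskerin, 7.80% and 8.72% in GAR1, 5.84% and 7.19% in IgG-dyskerin, and 7.13% and 5.48% in IgG-GAR1. The mean was 8.34% ± 0.485 in the antibody libraries and 6.41% ± 0.880 in the IgG libraries (SD, n = 4 each). The 4 antibody libraries were all above the 4 IgG libraries, a difference of 1.93 percentage points (two-sided exact permutation test, p = 0.0286, the smallest that 70 arrangements allow, and 0.0381 adjusted over the 4 shares tested). The 95% Wilson interval ran from 8.67% to 8.76% in the second GAR1 library, from 5.01% to 5.997% in the second IgG-GAR1 library and from 6.499% to 7.95% in the second IgG-dyskerin library. The last reached above the lowest antibody value, that of the first GAR1 library (7.73% to 7.88%), so counting error alone could close the gap at that pair. Without the second library of both IgG sets, which held the fewest cDNAs, the difference was 1.86 and p was 0.0667 in the exact test, the smallest this design allows.

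**Figure D2:**
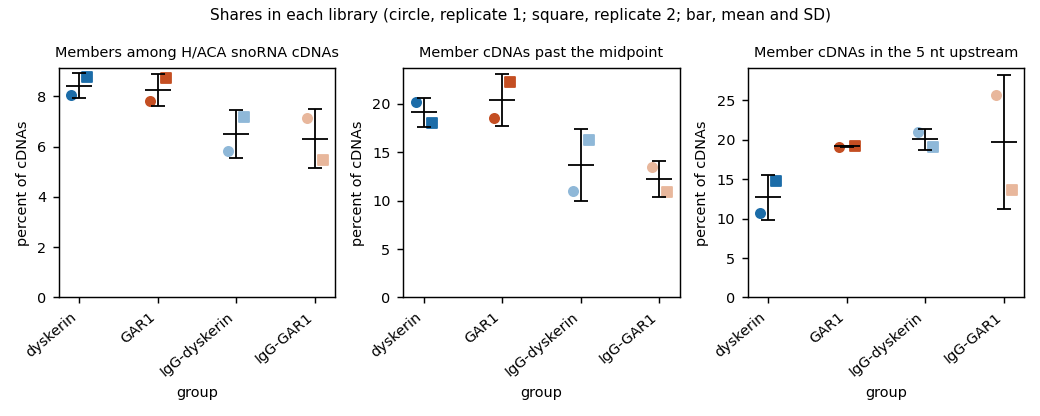
Shares of cDNAs (percent) in the 8 libraries by group: members among H/ACA snoRNA cDNAs, member cDNAs past the midpoint of the RNA, and member cDNAs in the 5 nt upstream. Circles are replicate 1, squares replicate 2, and bars the mean and SD; in the first 2 panels every antibody library lies above every IgG library, and in the third they overlap.

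Taken RNA by RNA on the same scale, 6 of 24 members were higher in every antibody library than in every IgG library and 0 were lower. Of the 129 H/ACA snoRNAs compared 14.7% were higher and 2.33% lower, and of the 105 that were not members 12.4% and 2.86%. The 6 were SNORA9, SNORA78, SNORA15B-1, SNORA20B, SNORA70I and the SNORA73 copy on chromosome 18, of which the last 5 had no site in at least 3 IgG libraries. Apart from SNORA78, these held at most 0.0134% of the H/ACA cDNAs in a library. The second IgG libraries, with 4867 and 8137 H/ACA snoRNA cDNAs, were too shallow to show such levels. The 6 of 24 are therefore not read as an excess of the members. SNORA9 held 0.934% and 0.927% of the H/ACA cDNAs in dyskerin, 0.984% and 1.05% in GAR1, and 0.640%, 0.781%, 0.891% and 0.270% in the IgG libraries. Its level was therefore separated from IgG in each library, though by a narrow margin at the nearest pair.

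Between the antibodies, the direction of a member depended on the scale. Scaled by TMM, 10 of 24 members were called lower in dyskerin than in GAR1 and 0 higher, against 1.63% lower and 0% higher of all genes. At an unadjusted p under 0.05 21 were lower and 0 higher, with 6.62% and 51.5% of all genes. Of the 105 other H/ACA snoRNAs tested 77 (73.3%) were called lower. The members' median log2 fold change was -6.49, that of the other H/ACA snoRNAs -6.19 and that of all genes 5.55. These sizes, and those listed next, rest on the TMM factors. Without TMM the median was -2.79 for the members and 6.56 for all genes, and with DESeq2 -0.71 and 8.58. The 10 were SNORA17B (-7.15, SE 1.52, adjusted p = 0.000949 by edgeR), SNORA63D (-6.93), SNORA7B (-6.51), SNORA17A (-6.48), SNORA26 (-6.36), SNORA13 (-6.27), SNORA63E (-6.25), SNORA9 (-6.23), SNORA50C (-5.62) and SNORA24 (-5.40, SE 1.26, adjusted p = 0.0028). The H/ACA share of the cDNAs, which moves with these folds, was 12.6% to 15.9% for dyskerin and 75.5% to 78.4% for GAR1. Scaled to H/ACA snoRNA cDNAs, a setting added after the data were seen, the median of the members was -0.36, that of all genes 8.35, and SNORA24, SNORA50C and SNORA63E turned to 0.66, 0.46 and 0.06. The number called lower was then 3 of 24, against 15 of 6451 genes, and DESeq2 called 0 members. Leaving out a single library leaves 1 in its group, so only the size is given for such fits. Under TMM the members' median log2 fold change then ran from -7.14 (GAR1 replicate 1 omitted) to -4.49 (GAR1 replicate 2 omitted).

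Within the H/ACA snoRNA cDNAs, single RNAs leaned to either protein. SNORA24 took 2.23% and 3.15% of them in dyskerin and 1.70% and 1.72% in GAR1. SNORA50C took 0.946% and 1.01% in dyskerin and 0.703% and 0.722% in GAR1. Both were above GAR1 in both dyskerin libraries, as were SNORA22C, SNORA11F and SNORA20B. SNORA17B took 0.551% and 0.433% in dyskerin and 0.860% and 1.06% in GAR1, a ratio of means of 0.511. SNORA26 took 1.01% and 0.805% in dyskerin and 1.11% and 1.09% in GAR1. SNORA17B and SNORA26 were thus lower in both dyskerin libraries than in both GAR1 libraries, as were SNORA9, SNORA13, SNORA17A, SNORA63D, SNORA7B and SNORA78 among the leading 13. Of the 24 members compared 5 were above, 14 below and 5 overlapped, and of the 105 others 30 were above and 34 below. Among the 14, SNORA80C, SNORA1B, SNORA15B-1, SNORA15B-2 and the SNORA73 copy on chromosome 18 had at most 9 cDNAs in a dyskerin library. They passed the count filter through GAR1 or its IgG, which favours this direction. The counts are therefore not read as a lean of the members. The background over all 129 was 27.1% above and 37.2% below. With 2 libraries on each side an exact permutation test cannot go under p = 0.333, so these orders carry no test.

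**Figure D3:**
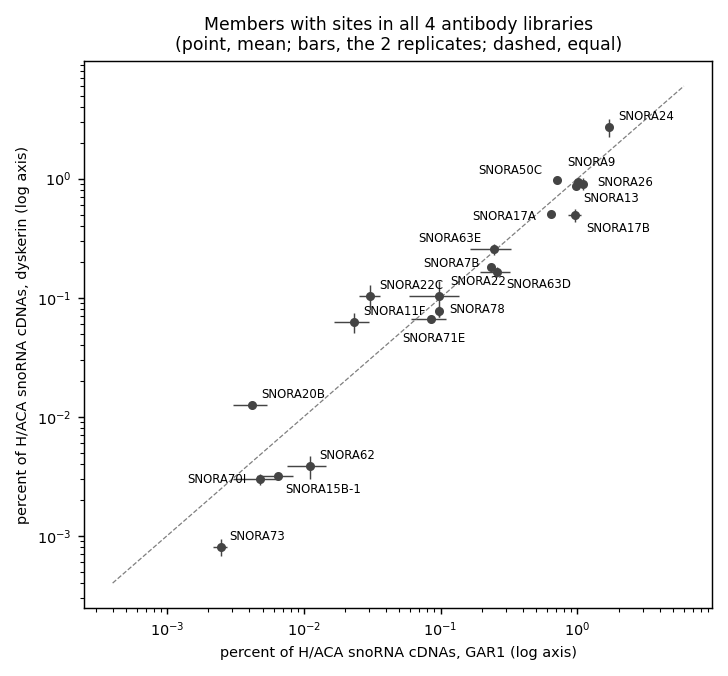
Percent of H/ACA snoRNA cDNAs (both axes log) of each member with sites in all 4 antibody libraries, in GAR1 on the horizontal and dyskerin on the vertical axis. Points are means, bars span the 2 replicates, and the dashed line marks equal shares; SNORA24 and SNORA50C lie above the line and SNORA17B below it.

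Along the RNAs, crosslink sites gathered at a few positions, and most lay in the 5′ hairpin. In the members with both boxes, 61.7% to 76.7% of cDNAs lay in the 5′ hairpin by library, 7.88% to 17.9% in the 3′ hairpin and 0.857% to 2.77% in the candidate H box, with the rest in the 5 nt upstream. The ACA box and tail held 0%. Of 186263 cDNAs inside the members' bodies 7 lay in the last 15 nt, and the nearest was 6 nt from the end. The other H/ACA snoRNAs were alike. Theirs were 60.7% to 78.0% in the 5′ hairpin, at most 0.00749% in the ACA box and tail, and 0.0137% in the last 15 nt. A cDNA that starts so near the end is very short, so the lack of such sites does not show a lack of contact. Uridines held 34.3% to 44.2% of the body cDNAs and were 27.9% to 28.8% of the bases in the members weighted in the same way.

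Antibody libraries held more of the cDNAs in the 3′ part. Past the midpoint lay 20.2% and 18.02% of body cDNAs in dyskerin, 18.5% and 22.2% in GAR1, 11.0% and 16.3% in IgG-dyskerin, and 13.5% and 10.9% in IgG-GAR1. The means were 19.7% ± 1.91 for the antibodies and 12.9% ± 2.52 for IgG (SD, n = 4 each), a difference of 6.80 percentage points without overlap (two-sided exact permutation test, p = 0.0286, adjusted 0.0381). The second IgG libraries rested on 283 and 385 body cDNAs, and the 95% Wilson interval of the 16.3% ran from 12.4% to 21.0%. Without SNORA24 the difference was 6.83 but the groups overlapped (exact p = 0.143), and it was 7.001 (exact p = 0.0857) over the 7 members with at least 15 cDNAs in every library, each with equal weight. The 5 nt upstream held 10.7% and 14.7% of member cDNAs in dyskerin, 19.1% and 19.2% in GAR1, 21.0% and 19.1% in IgG-dyskerin, and 25.7% and 13.7% in IgG-GAR1. Both dyskerin libraries were below both of their IgG libraries, while GAR1 lay between its own. The mean was 15.9% ± 4.09 in the antibody libraries and 19.9% ± 4.97 in IgG (SD, n = 4 each), which was not separable (exact permutation test, p = 0.257).

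Over all 8 libraries a smaller share of cDNAs lay past the midpoint in the members than in other H/ACA snoRNAs, but the antibody libraries alone did not separate them. With each RNA of at least 50 cDNAs in a library given equal weight, 22.4% and 21.1% of body cDNAs lay past the midpoint in the members in dyskerin, 24.8% and 29.3% in GAR1, 13.4% and 0% in IgG-dyskerin, and 13.1% and 9.17% in IgG-GAR1. In the other H/ACA snoRNAs the values were 29.1% and 27.6%, 29.1% and 25.5%, 18.4% and 19.7%, and 19.9% and 24.2% in the same order. The members were lower in 7 of 8 libraries, the exception being the second GAR1 library, with a mean difference of -7.53 percentage points (two-sided exact sign-flip permutation test over the 8 libraries, p = 0.0156, adjusted 0.0381). This p-value measures how the difference repeated over libraries, in which the same RNAs recur, and not the spread between RNAs. The value of the second IgG-dyskerin library rested on 1 member, SNORA24, and that of the second IgG-GAR1 library on 3. In the 4 antibody libraries alone the difference was -3.43 (exact p = 0.25). Without SNORA24 no member of at least 50 cDNAs was left in the second IgG-dyskerin library. The difference was then -4.11 over the other 7 libraries (exact p = 0.0625).

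Single RNAs differed widely in where they were crosslinked. In SNORA24 the leading site was base 37 in both dyskerin libraries, with 18.8% and 14.1% of its cDNAs, against 9.83% and 7.12% in GAR1 and 4.48% to 11.4% in IgG. Base 11 led in all other libraries, with 19.0% and 8.23% in GAR1, 22.2% to 30.2% in IgG, and 13.8% and 13.7% in dyskerin. Both bases are cytidines and predicted by RNAfold to be unpaired, and base 37 lies 19 nt before the candidate H box shown above. SNORA17A held 56.8% and 58.3% of its body cDNAs past the midpoint in dyskerin, 34.98% and 35.3% in GAR1, and 25.8% to 50% in IgG. Its leading site past the midpoint was base 81, a uridine with 19.1% of cDNAs in the first dyskerin library. SNORA17B, from the same host, held 35.8% and 33.97% past the midpoint in dyskerin and 35.9% and 35.1% in GAR1, so its dyskerin and GAR1 libraries lay close together.

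SNORA50C had no cDNA past the midpoint in any of the 8 libraries, and its last site was base 60 of 133, just before its candidate H box. Its sites lay 3 nt before the start and in the 5′ hairpin, as the profile of sites shows. SNORA11F likewise had no site past the midpoint, with the leading site at base 9 or 10 in the libraries where it had at least 15 cDNAs. SNORA20B went the other way: in both dyskerin libraries and in the second GAR1 library all of its cDNAs lay past the midpoint, with the leading site at base 112 or 113 of 132. These were only 25, 40 and 80 cDNAs. SNORA20B is 92.4% identical to SNORA20 of the gene TCP1, which held 27061, and reads that matched several places were kept, so some may belong there. In SNORA13 the leading site in the antibody libraries was base 10 or the third nucleotide before the start, and 48.8% and 46.5% lay past the midpoint in dyskerin against 32.4% and 39.3% in GAR1.

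**Figure D4:**
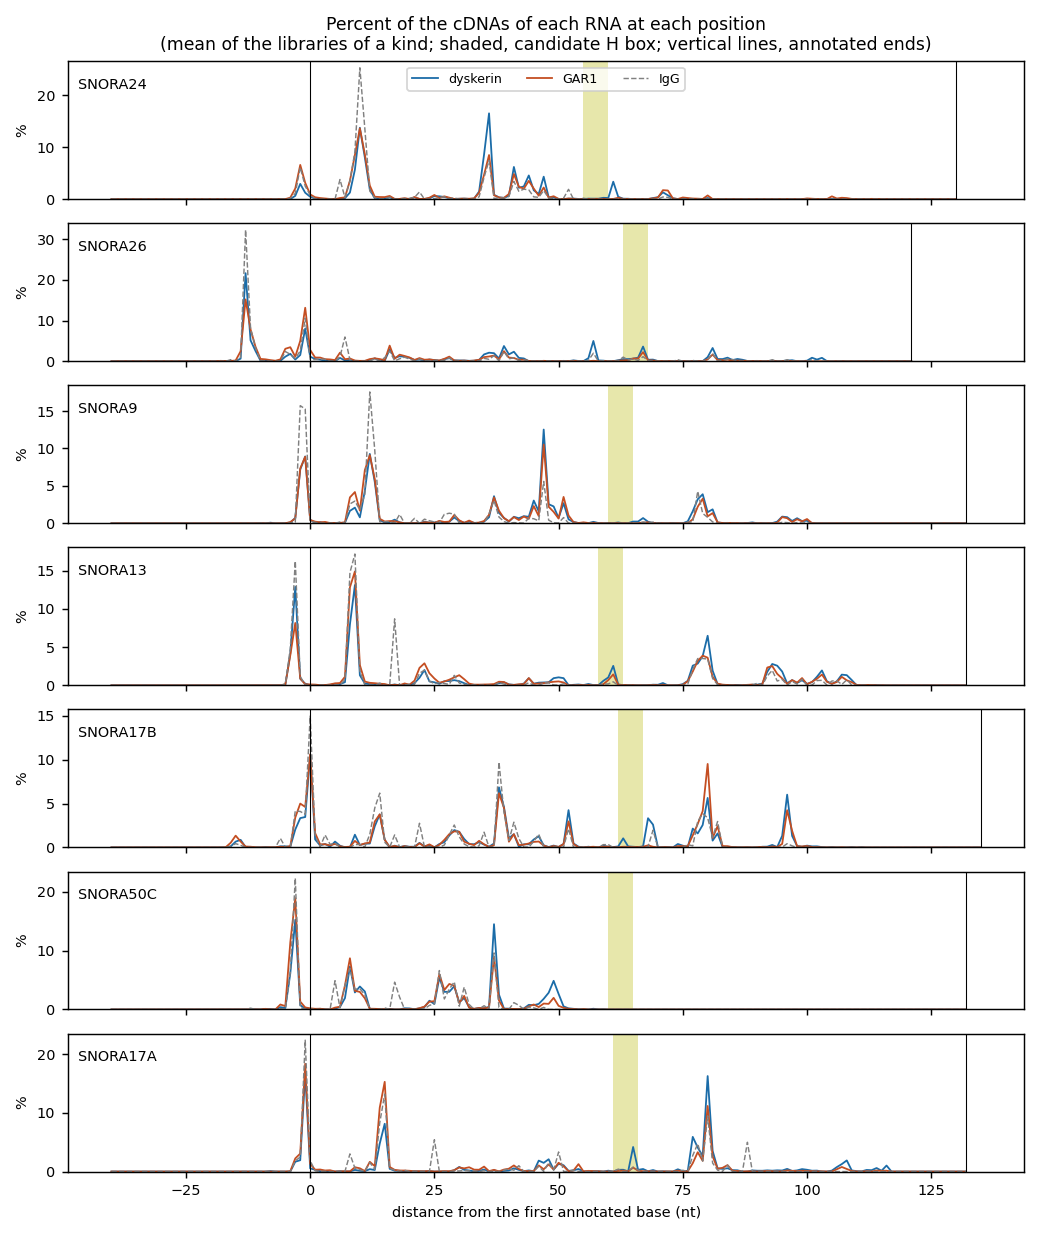
Percent of the cDNAs of each RNA, from 40 nt before the annotated start to its end, at each position for the 7 members with at least 15 cDNAs in every library. Lines are means of the 2 dyskerin, 2 GAR1 and 4 IgG libraries, the shaded band is the candidate H box and vertical lines the annotated ends; SNORA24 shows the dyskerin peak at base 37, SNORA26 the peak 13 nt upstream, and SNORA50C no site in its 3′ part.

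Over these 7 RNAs, with equal weight, bases 8 to 17 held 18.6% ± 0.400 of cDNAs in dyskerin, 25.5% ± 2.46 in GAR1 (SD, n = 2 each) and 29.96% ± 4.10 in IgG (SD, n = 4). Bases 34 to 53, the 3′ side of the first hairpin, held 26.8% ± 4.60, 19.7% ± 1.45 and 14.9% ± 2.71 in the same order. The stretch 15 to 24 nt past the first base of the H box held 13.4% ± 0.603, 11.1% ± 1.15 and 9.22% ± 2.47. These stretches were chosen after the positions were seen, so the values are a description with no test.

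SNORA26 stood out for sites before its annotated start. In the 6 to 40 nt upstream of the members lay 16770 cDNAs, in 11 members, and 13802 of them belonged to SNORA26. They are no part of the counts above. The nucleotide 13 nt before the start alone held 7012 cDNAs, 50.8% of those, and is the capital letter in the 20 nt before the gene at chr4:52713229-52713248 (+).
before SNORA26: atcacaaAgcaccctttcct
These upstream cDNAs were 24.2% and 37.0% of all cDNAs of SNORA26 and the upstream stretch in dyskerin, 34.8% and 27.9% in GAR1, 48.8% and 38.8% in IgG-dyskerin, and 51.8% and 42.7% in IgG-GAR1. The 4 IgG libraries were thus above the 4 antibody libraries in this share, a pattern noticed in the data and not tested. No cDNA lay in the 40 nt past the 3′ end of SNORA26 or of any other member. The other members with more than 200 upstream cDNAs were SNORA63D (966), SNORA78 (934), SNORA17B (824) and SNORA50C (214).

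Outside the snoRNAs, the lncRNA hosts held few cDNAs, with DANCR as the exception. SNHG8 had 0 to 4 cDNAs in each library beside SNORA24, SNHG15 0 to 3 beside SNORA9 and EPB41L4A-AS1 0 to 4 beside SNORA13. In DANCR, a second group of sites lay at chr4:52712607-52712676, its last site 573 nt before SNORA26, with 13772 cDNAs over the 8 libraries. In CPM this was 459 and 477 in dyskerin, 4031 and 4365 in GAR1, 416 and 2444 in IgG-dyskerin, and 3353 and 3831 in IgG-GAR1. Both GAR1 libraries were above both IgG-GAR1 libraries at this group, while dyskerin and IgG-dyskerin overlapped. SNHG7 and SNHG9 held up to 650 and 695 cDNAs in a library, in sites that adjoin SNORA17B and SNORA78.

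Sequence similarity bears on several members, because reads that matched several places were kept in the authors' counts. Among the leading RNAs, SNORA24 is 93.9% identical to SNORA24B of the gene PARP16, which held 2544 cDNAs against 52241, and SNORA9 is 91.7% identical to SNORA9B of DDX55, with 657 against 27334. SNORA15B-1 and SNORA15B-2, in CCT6P3 and the lncRNA gene ENSG00000291124, have the same sequence, shown here since their counts cannot be assigned by it.
SNORA15B-1: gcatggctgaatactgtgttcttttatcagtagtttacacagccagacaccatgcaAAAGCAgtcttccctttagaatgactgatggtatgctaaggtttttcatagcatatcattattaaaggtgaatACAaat
The files listed 168 cDNAs for SNORA15B-1 and 194 for SNORA15B-2, and in the second GAR1 library the copies shared 6 of 24 positions with a site, none with an equal count. SNORA22 and SNORA22C are 98.5% identical, with 3098 and 1236 cDNAs. SNORA22 held 40% of its body cDNAs past the midpoint in the second GAR1 library and 17.6% in the second dyskerin library, and SNORA22C 38.1% and 10.3%. SNORA7B, with 6271 cDNAs, is 98.6% identical to SNORA7A of the protein-coding gene RPL32, with 28080. The values of these RNAs are uncertain to that degree, whereas SNORA26, SNORA13, SNORA17A and SNORA17B had no other H/ACA locus above 58.8% identity.

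Across all 87, 33 members were at least 90% identical to another H/ACA locus, 20 of them with a site, and 54 were less similar, 17 of them with a site. Among the 22 members with a site but few cDNAs (4 to 209), 14 were at least 90% identical to another locus. A candidate H box together with an ACA within the last 10 nt, or an ATA where no ACA was found, was present in 32 of 37 members with a site (86.5%). Both were present in 21 of 50 without (42%) and in 94 of 124 other H/ACA snoRNAs (75.8%). A match to these letters is a description of the sequence and shows no working box. SNORA78, for example, has no ANANNA in the middle, and SNORA71E no ACA in its last 10 nt, and both had sites.

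**Figure D5:**
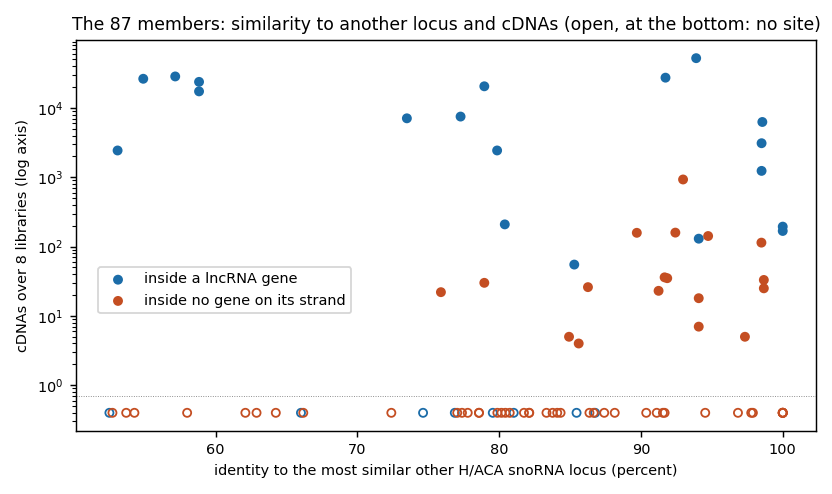
Identity (percent) of each of the 87 members to the most similar other H/ACA snoRNA locus, against its cDNAs over the 8 libraries (log axis). Blue, members inside a lncRNA gene; red, members in no gene on their strand; open symbols at the bottom mark the 50 without a site, and the highest red point is SNORA11F, with 929 cDNAs.

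The mRNAs of the H/ACA proteins and their assembly factors gave a contrast to the snoRNAs. Of 18 such genes 12 were tested, and 0 were called in any of the 3 comparisons. Their sites lay almost wholly in dyskerin and its IgG: 15 had a site in both dyskerin libraries and 0 in both GAR1 libraries. In sum they had 1113 and 1316 CPM in dyskerin, 6.83 and 3.04 in GAR1, 969 and 0 in IgG-dyskerin, and 0 in both IgG-GAR1 libraries. The median log2 fold change was 3.94 for dyskerin against its IgG, where the median of all genes was 2.00, and 6.19 for dyskerin against GAR1, where it was 5.55. Tested genes such as SHQ1, RUVBL1, RUVBL2, TENT4B and COIL passed the count filter through dyskerin alone. They had no site in IgG-dyskerin or in GAR1, so these medians include folds against no counts and do not measure an excess. The mRNA of DKC1, which encodes dyskerin, had 90 and 113 cDNAs in the dyskerin libraries and 0 in GAR1. TERC, the RNA of telomerase and an H/ACA RNA outside the SNORA family, had no site in any library.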

How the data were processed

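U2OS iCLIP libraries were processed by the authors on the iMaps server. Per the labels, quality was checked with FastQC 0.11.9, Cutadapt trimmed adapters and STAR 2.7.0e aligned the reads to GRCh38. The deposited values are counts of cDNAs at significant crosslink sites, not normalized, with sites called in each library at a false discovery rate of 0.05 and multi-mapped reads kept. Columns of other samples that were not used numbered 0, and the deposited clusters were not used. Site counts were summed over GENCODE 44 gene bodies, for snoRNAs with the 5 nt upstream. The 6451 genes that reached 10 counts in 2 or more libraries entered a test in edgeR 4.0.16 under R 4.3.3 (quasi-likelihood, TMM, 4 groups in 1 fit, 4 residual degrees of freedom), with Benjamini-Hochberg adjustment over all of them. The edgeR p-values rest almost wholly on a spread estimated over all genes together, not on that of each member between its 2 replicates. The 4 residual degrees of freedom therefore do not set them. TMM factors ran from 0.0716 to 4.02. An SE beside an edgeR log2 fold change is the absolute fold change divided by the square root of the F statistic, since this test gives none. Shares were compared by exact permutation tests. On simulated counts for dyskerin against IgG-dyskerin (4279 genes), 199 of 200 genes changed 8-fold were recovered with 10 false calls. The simulated libraries had equal depth and a fixed spread, and only well-counted genes were changed. Since the real libraries differed widely in depth, this recovery does not show the power of the real comparisons. Wilson intervals cover counting error only.

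Alternatives were total scaling without TMM, DESeq2 1.42.0, other filters, annotated bodies only, sites of at least 3 cDNAs, a replicate block and leaving out each library. Named members were the 20 of highest mean CPM over the antibody libraries and, per comparison, the 3 of highest and 3 of lowest fold change, and others named were chosen after their values were seen. The members and lists were chosen with earlier results of these data known. The sequence of 1 leading member is not reported here.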

Additional observations from a re-analysis of the deposited data

Results flagged for a closer look

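In CPM of the counted window, SNORA26 stood on opposite sides of IgG in the 2 sets. The log2 ratio of mean CPM was -1.32 for dyskerin over IgG-dyskerin and 0.14 for GAR1 over IgG-GAR1, with every library on the stated side of its control. The GAR1 direction depended on the window. The 6 to 40 nt upstream held 4636 and 3178 CPM in GAR1 and 8261 and 5700 in IgG-GAR1. With that stretch included, both GAR1 libraries lay below both IgG-GAR1 libraries, by a narrow margin at the nearest pair, and dyskerin stayed below IgG-dyskerin. As a share of H/ACA snoRNA cDNAs the dyskerin direction turned, with means of 0.907% and 0.838% in IgG-dyskerin and overlapping libraries. The difference between the sets was not tested, and the H/ACA share of the 2 IgG-dyskerin libraries differed widely (16.2% and 59.5%).

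Signal was also found outside the counted windows, at mean levels on either side of IgG. In the 6 to 40 nt before SNORA26 it was lower than in IgG, at 577 CPM in dyskerin and 2234 in IgG-dyskerin, and at 3907 in GAR1 and 6981 in IgG-GAR1. Before SNORA17B it was 13.0 in dyskerin with no site in IgG-dyskerin, but those controls, with 146514 and 8183 cDNAs, were too shallow to show such a level, and GAR1 and IgG-GAR1 overlapped there. Before SNORA50C it was 57.1 in GAR1 (39.3 and 74.9 by library), with 15.2 in IgG-GAR1 (30.5 and 0). The IgG library at 0 held 10701 cDNAs and was too shallow to show such a level. The second group of sites in DANCR had 4198 in GAR1 and 3592 in IgG-GAR1, but 468 in dyskerin and 1430 in IgG-dyskerin.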

How the results depend on the processing

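In dyskerin against IgG-dyskerin 0 members were called under every alternative run. In GAR1 against IgG-GAR1 2 were called without a filter on low counts, and 0 to 11 when single libraries were left out (11 without the first GAR1 library, 0 otherwise). In dyskerin against GAR1, where 10 were called, the count was 0 with DESeq2, 21 without a filter, 6 with the replicate block and 3 with H/ACA scaling, and 2 to 19 with a library left out. Log2 fold changes of dyskerin over GAR1 turned positive for SNORA50C (0.0898), SNORA24 (0.29), SNORA22C (1.41), SNORA20B (1.24) and SNORA11F (1.09) with DESeq2. With H/ACA scaling they did so for SNORA50C (0.46), SNORA63E (0.064), SNORA24 (0.66), SNORA22C (1.75), SNORA20B (1.55) and SNORA11F (1.43). The cause was not tested, but the scaling to H/ACA RNA removes by construction the difference in H/ACA content. Over all genes, where 0 were called higher and 105 lower, total scaling without TMM called 5849 and 174, DESeq2 3628 and 0, no filter 0 and 468, a minimum of 50 counts 3108 and 245, annotated bodies 3594 and 218, sites of at least 3 cDNAs 2413 and 95, the replicate block 0 and 55, and H/ACA scaling 5991 and 15. Against IgG, where 0 genes were called, the minimum of 50 counts called 803 higher and 7 lower for dyskerin, and DESeq2 72 higher and 12 lower for GAR1.

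The members' share of H/ACA cDNAs differed by 1.93 with the replicate numbers as pairs (exact p = 0.125, the smallest 4 pairs allow), by 1.86 without the second IgG libraries (p = 0.0667) and by 1.62 to 2.19 with a library left out (p from 0.0286 to 0.0571). The share past the midpoint differed by 6.83 without SNORA24 (exact p = 0.143), 7.001 over 7 members (p = 0.0857), 6.80 as pairs (p = 0.125) and 5.97 to 7.91 with a library left out (p = 0.0571 without any 1 antibody library). The upstream share differed by -6.01 to -2.003 with a library left out. Members against other H/ACA snoRNAs differed by -4.11 without SNORA24 (exact p = 0.0625), where the second IgG-dyskerin library had no member left to compare. The difference was -3.43 in the antibody libraries (exact p = 0.25) and -9.15 to -5.80 with a library left out. H/ACA scaling, the 7-member set, the antibody libraries alone and the omission of both second IgG libraries were chosen after the data were seen. Same-numbered libraries deviated together little (correlations of -0.083 to 0.1003), so the numbers were not taken as pairs. The small IgG libraries limit what their sites can show.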
